A study of Homo sapiens with 24 samples.

Results

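The regions described here are the 534 sites at which SMARCA4 was found in every library of the study, in control cells and in cells with TWIST2 knockdown (KD) alike. They were selected on the presence of SMARCA4 peaks, by merging the peaks of 4 SMARCA4 lists, 2 from control and 2 from KD libraries, wherever they overlapped by at least 1 bp, and keeping each merged region that held a peak of all 4 lists. Of the 48009 merged regions, 35764 held peaks of 1 list, 8996 of 2 lists, 2715 of exactly 3 lists and 534 of all 4. The 534 regions are called constant sites below, a name that refers to the called peaks and not to the amount of SMARCA4 signal. Because SMARCA4 peaks chose these sites, their presence in all 4 lists and their rank within the lists are a description. The peaks of the other antibodies came from other libraries, which played no part in the choice.

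The data are ChIP-seq peak lists (sequencing of chromatin fragments pulled down with an antibody) from RD, an established human cell line of fusion-negative rhabdomyosarcoma, a soft tissue tumour that resembles immature skeletal muscle. The groups compared were labelled control and TWIST2 KD, with 2 libraries of each for SMARCA4 (set RD-2 in the labels) and for H3K27ac and MYOD (set RD-1). A further 2 RD-1 libraries used a Ty1 antibody in cells labelled 3xTy1-TWIST2, that is with tagged TWIST2, and these cells were neither control nor KD. The antibody of the SMARCA4 libraries is labelled BRG1, another name of the same protein. What RD-1 and RD-2 stand for is not given in the sources used here. Comparisons of SMARCA4 with the other antibodies thus join 2 sets, which may be separate experiments. All samples came from this 1 cell line, and how TWIST2 was knocked down, what promoter drove the tagged TWIST2 and whether replicates were separate cultures is not given in the sources used here. The p-values over libraries therefore measure only the spread between these libraries, which may be technical. The lists hold no measure of TWIST2 itself in KD cells, so the knockdown was not checked here, nor were marker loci of the cell line, since positions are in build hg19 and no annotation of that build was used.

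SMARCA4 is an ATPase of the SWI/SNF complexes, which use the energy of ATP to slide or evict nucleosomes and so open chromatin for other factors. MYOD is the basic helix-loop-helix factor that drives skeletal muscle differentiation and recruits SWI/SNF to muscle genes. TWIST2 is a basic helix-loop-helix factor of mesenchymal cells that can oppose MYOD. H3K27ac, the acetylation of histone H3 at lysine 27, marks active promoters and enhancers.

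The 4 SMARCA4 libraries had 36095336 to 46690705 sequenced tags and 11835 to 25013 peaks, and the constant sites made up 4.51% and 2.14% of the control lists and 4.27% and 3.64% of the KD lists. The 2 groups differed in library properties that bear on every tag count below. HOMER's estimate of fragment length was 82 bp (control 1), 132 bp (control 2), 140 bp (KD 1) and 144 bp (KD 2). Tags were counted over 1 fixed peak width per list, which in the same order was 194, 159, 140 and 145 bp. The share of tags within peaks, which HOMER reports as the efficiency of the immunoprecipitation, was 0.88% and 1.83% in the control and 0.65% and 0.70% in the KD libraries. Control 2 stood apart with the longest list and the highest efficiency. For the H3K27ac, MYOD and Ty1 libraries the depth is unknown, since their lists hold positions only.

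The merged constant sites were 195 to 584 bp wide, with a median of 254.5 bp. At 294 of them (55.1%) the centres of all 4 SMARCA4 peaks lay within 100 bp, and the median distance between the outermost centres was 91 bp. The sites lay on all autosomes and chromosome X, from 68 on chromosome 1 and 41 on chromosome 2 to 3 on chromosome 13 and 2 on X. Few lay near another: 4 sites had another within 5000 bp, 8 within 20000 bp and 32 (5.99%) within 100000 bp. Each of the 455 H3K27ac regions that held a constant site held just 1. Whether the sites were closer together than random spacing would give was not tested. They were neither the highest peaks as a group nor a uniform one. Within its list, a constant site had a median percentile of tag count of 74.8 and 79.9 in the control and 73.3 and 84.2 in the KD libraries, and 14.8% to 25.5% of the sites were in the lower 50% of a list. The least of them had a mean percentile of 8.40, whereas 989 of the 2715 regions in exactly 3 lists were above the median constant site. Among the regions in exactly 3 lists, KD 2 was the missing list at 1063, KD 1 at 854, control 1 at 601 and control 2 at 197.

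SMARCA4 signal at the constant sites was lower in KD than in control libraries on the deposited scale, the normalized tag count (tags in the peak per 10000000 tags of the library). The median over the 534 sites was 9.0 and 9.60 in the control libraries and 5.82 and 6.09 in the KD libraries. Both KD medians were below both control medians. Means of the medians were 9.30 ± 0.424 in control and 5.96 ± 0.191 in KD (SD, n = 2 each), a ratio of 0.640 and a log2 difference of -0.64. With 2 against 2 libraries the exact two-sided permutation test cannot give less than p = 0.33, which is what it gave. In control 1 the sites ran from 3.64 to 44.5, in control 2 from 3.35 to 55.6, in KD 1 from 3.05 to 20.8 and in KD 2 from 3.17 to 39.2. The difference was shared with SMARCA4 peaks at large: medians over whole lists were 7.07 and 6.69 in control and 4.99 and 4.38 in KD, a log2 difference of -0.56, and regions in exactly 3 lists differed by -0.61.

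The size of the difference depended on the scale. Per 100 bp of peak width the medians at constant sites were 4.64 and 6.04 in control and 4.16 and 4.2 in KD, and the log2 difference was -0.34. Fold enrichment over the matched input, which peak calling bounds at 4 from below, had medians of 5.49 and 6.52 in control and 5.81 and 6.01 in KD. Both KD values lay between the control values on this scale, with a log2 difference of -0.02 (exact permutation p = 1). Fold over the surrounding 10000 bp had medians of 6.72 and 8.08 in control and 6.69 and 6.29 in KD, a log2 difference of -0.18 (exact permutation p = 0.33). Peak width, fragment length and immunoprecipitation efficiency all moved with the groups, and their part in the lower KD tag counts was not tested.

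**Figure D1:**
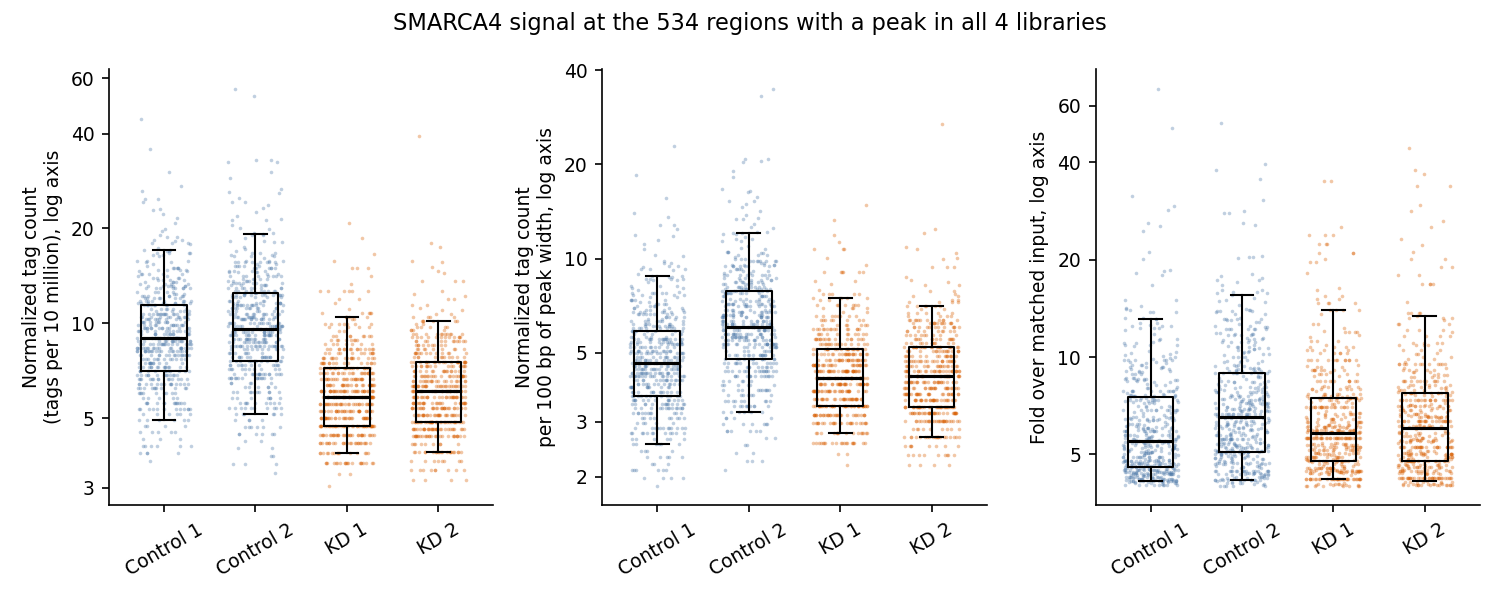
SMARCA4 signal at each of the 534 constant sites (points) in the 4 libraries, as deposited, per 100 bp of peak width and as fold over input, all on log axes. Boxes give median and quartiles, whiskers the central 90% of sites. Median tag counts were 9.0 and 9.60 in control and 5.82 and 6.09 in KD, while the median fold over input was 5.49 and 6.52 in control and 5.81 and 6.01 in KD.

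Site by site, limma was fitted to log2 normalized tag counts of the 3249 regions with a value in at least 3 lists, with Benjamini-Hochberg adjustment over all of them at 0.05. Of the 534 constant sites 355 (66.5%) were lower in KD, where 48.5% of all regions fitted were called lower. Higher in KD were 3 constant sites (0.562%), against 0.400% of all regions. At an unadjusted p under 0.05 there were 396 constant sites. Of the regions fitted, 2715 had 1 value fewer than a constant site and so less power for a call. The shares of constant sites and of all regions are therefore not like for like. Sites called lower numbered 223 without control 1 and 200 without control 2, and sites called higher 0 without control 2. All fitted regions have a peak in nearly every list because they were selected for it, so these shares describe sites that stayed above the calling threshold in both groups. Most sites differed in the same direction: the median log2 difference was -0.65 over the constant sites and -0.58 over all regions fitted, and 509 sites were below 0. The central 90% of the sites lay between -1.21 and -0.02, with a median standard error of 0.21. Once the medians of the 4 libraries had been set equal, limma with the same adjustment called no region (0% of the 3249) in either direction. The lowest adjusted p was then 0.127 at a constant site and 0.0821 over all regions, and at an unadjusted p under 0.05 there were 39 constant sites lower and 62 higher than the shared shift. Per bp of peak width 0 sites were called lower and 1 higher (background 0.0308% and 0.0616%, 109 sites at an unadjusted p under 0.05). On fold over input, and on fold over local background, limma called 0 sites either way (background 0%), with 43 and 66 sites at an unadjusted p under 0.05.

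Counted without a test, both KD values were below both control values at 444 constant sites (83.1%, against 85.7% of all regions fitted, most of which have 1 value fewer). Both were above at 12 (2.25%, against 4.46%), and the groups overlapped at 78. After setting the medians equal the counts were nearly even, 122 below and 123 above. Per bp of peak width they were 264 below and 29 above, on fold over input 115 and 88, and on fold over local background 207 and 46.

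**Figure D2:**
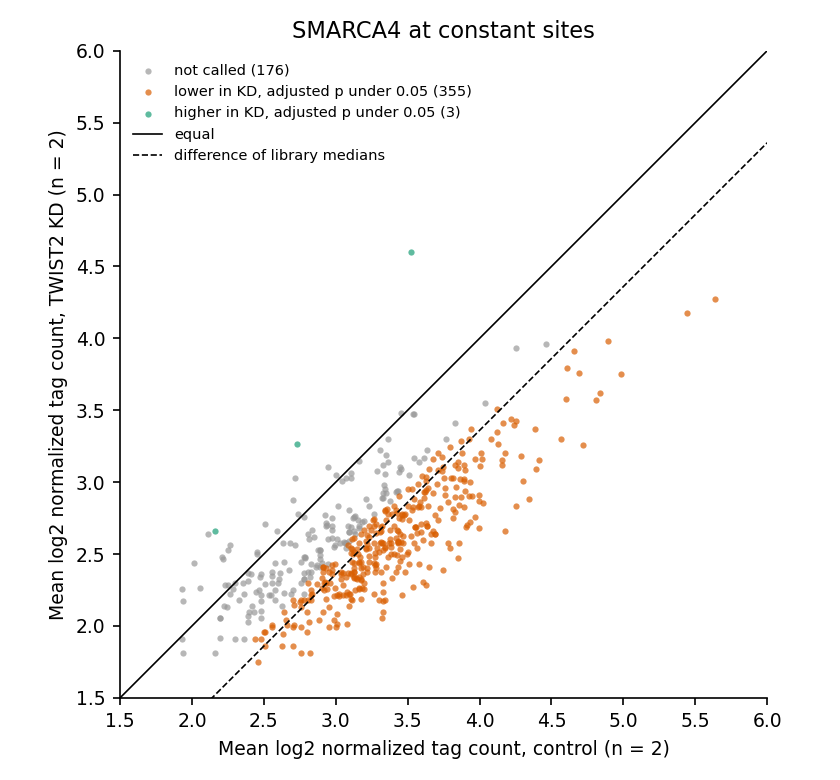
Mean log2 normalized tag count of SMARCA4 in the 2 KD libraries against that in the 2 control libraries, 1 point per constant site, coloured by limma's call. Most sites lie below the line of equality, spread around the dashed line drawn 0.64 below it, and 355 are called lower and 3 higher.

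The order of the sites was better kept between the control libraries than otherwise. Across the 534 sites Spearman's rho of tag counts was 0.830 between the controls, 0.623 between the KD libraries and 0.627 to 0.652 between a control and a KD library. These are correlations across sites, which share libraries and are not independent replicates. The KD counts rested on fewer tags, a median of 21 and 25 per site against 42 and 43 in control, so that counting error alone was 21.8% and 20.0% of the median KD value and 15.4% and 15.2% of the median control value. The median absolute log2 difference between libraries at a site was 0.22 between controls and 0.23 between KD libraries, and 0.58 to 0.72 between groups.

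The 10 constant sites with the highest mean percentile all had lower tag counts in both KD libraries than in either control. The first, on chromosome 2 at 210636392 to 210636586 (hg19), had 44.5 and 55.6 tags per 10000000 in control and 20.8 and 18.0 in KD. Its log2 difference was -1.36 (SE 0.21, limma adjusted p = 8.43e-05), or -0.72 relative to the shared shift, where its adjusted p was 0.171. This strongest SMARCA4 site had MYOD in all 4 libraries, with a control MYOD peak centred 21.0 bp away, and no H3K27ac and no Ty1 peak in any library. The second site, on chromosome 2 at 217236958 to 217237168, had 35.8 and 52.7 in control and 18.6 and 17.5 in KD. It also had MYOD in all 4 libraries, and it lay in an H3K27ac region of 3561 bp that was present in all 4.

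The third site, on chromosome 8 at 31880809 to 31881078, carried peaks of all the antibodies in every library. Its tag counts were 27.2 and 32.4 in control and 15.8 in both KD libraries, the nearest MYOD and Ty1 centres were 6.75 and 65.8 bp away, and its H3K27ac region was 9108 bp long. The fourth, on chromosome 2 at 219757526 to 219757720, had 30.2 and 33.0 in control and 13.3 and 13.6 in KD, with MYOD in all 4 libraries, Ty1 in both, and H3K27ac in 1 control and both KD libraries. Among these 10 sites, 9 were called lower by limma. The exception, on chromosome 17 at 64825705 to 64825930, had 18.8 and 25.9 in control and 16.6 and 14.6 in KD (log2 difference -0.50, limma adjusted p = 0.0524). H3K27ac was absent from all 4 libraries at 4 of the 10, on chromosome 2 at 210636392, chromosome 10 at 103600984, chromosome 1 at 98513884 and chromosome 2 at 224466997. MYOD was present in all 4 libraries at 6 of the 10, and Ty1 in both at 6.

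The steepest difference in signal was on chromosome 1 at 26735147 to 26735341, with 18.0 and 18.1 in control and 8.59 and 4.63 in KD. Its log2 difference was -1.52 (SE 0.23, limma adjusted p = 5.77e-05), the largest fall among the constant sites. It had no H3K27ac and no Ty1 peak and a MYOD peak in 1 control and 1 KD library. Next were chromosome 20 at 10200222 to 10200418, with 18.8 and 21.9 in control and 8.59 and 6.33 in KD, and chromosome 2 at 173118005 to 173118217, with 22.9 and 30.3 against 8.59 and 10.7. Both had a log2 difference of -1.46, and the second carried H3K27ac and MYOD in all 4 libraries and Ty1 in both. The 8 largest falls ran from -1.52 to -1.34, all 8 were called by limma on the deposited scale and none after the medians were set equal. H3K27ac in every library was seen at 3 of these 8 sites, MYOD in every library at 4 and Ty1 in both at 2.

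A single constant site had much more SMARCA4 in KD cells, and 1 library carried it. On chromosome 15 at 68132385 to 68132593 the tag counts were 14.8 and 8.93 in control, 15.0 in KD 1 and 39.2 in KD 2. The log2 difference was 1.08 (SE 0.27, limma adjusted p = 0.00271) and 0.38 without KD 2 (adjusted p = 0.196), and without control 2 it was 0.71 (adjusted p = 0.0551). The lowest KD value exceeded the highest control value by little. It was the 1 site called higher per bp of peak width (log2 difference 1.38, limma adjusted p = 0.0285). The site lay in an H3K27ac region of 6316 bp present in all 4 libraries and had no MYOD or Ty1 peak, the nearest control MYOD centre being 3290.8 bp away. The other 2 sites called higher were on chromosome 8 at 130527837 to 130528118 (6.0 and 7.36 in control, 7.76 and 11.9 in KD) and on chromosome 7 at 10468737 to 10468995 (4.28 and 4.69 in control, 6.09 and 6.57 in KD). Their log2 differences of 0.53 and 0.50 had limma adjusted p of 0.0467 and 0.0485, both had MYOD in all 4 libraries, and neither call was kept without KD 2 (log2 differences 0.22 and 0.44), without control 1 (0.38 and 0.43) or without control 2 (0.68 and 0.56). The second was not kept without KD 1 either (0.55). Over the 12 sites at which both KD values exceeded both control values, H3K27ac was complete at 3, MYOD at 3 and Ty1 at 6, and 2 had more than 1.5 times the KD 1 count in KD 2.

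**Figure D3:**
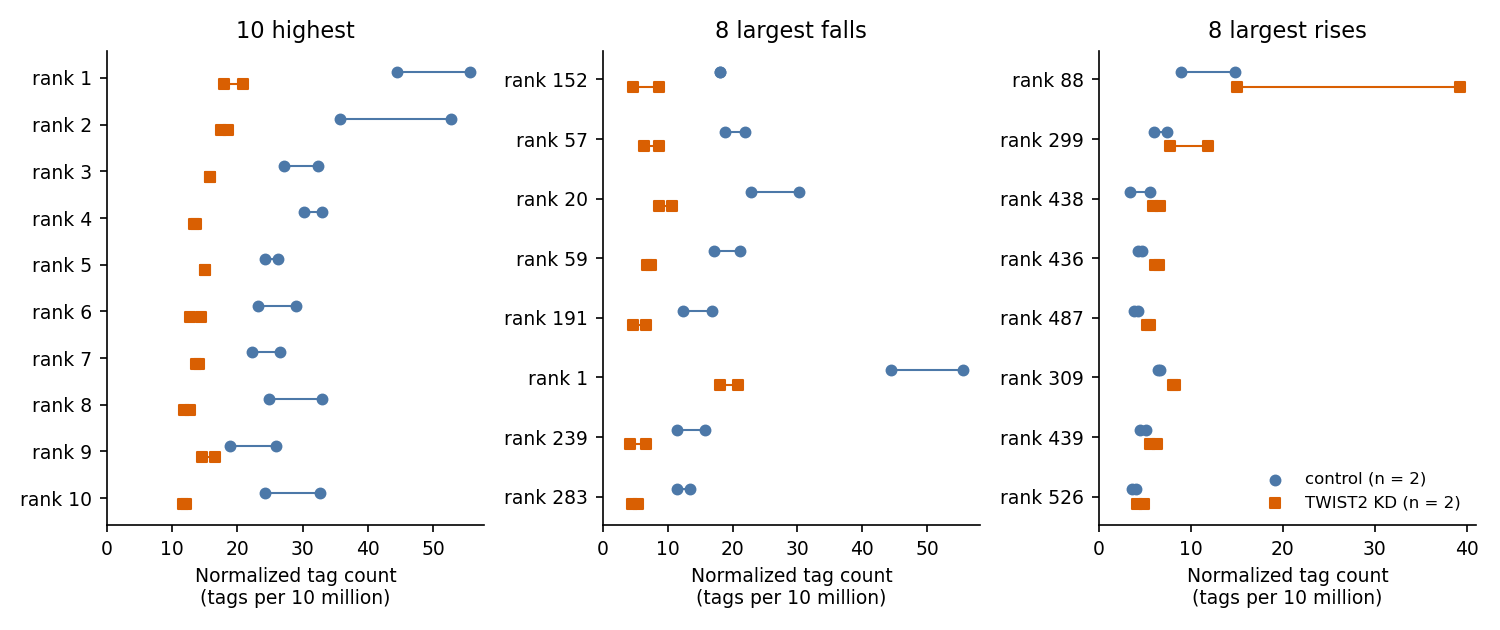
Normalized tag counts of SMARCA4 in control (circles) and KD (squares) libraries at the 10 highest constant sites and at the 8 with the largest fall and the 8 with the largest rise, each labelled by its rank among the 534. Groups are apart at every site drawn, and at rank 88, on chromosome 15, KD 2 at 39.2 stands far from the other 3 values.

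The difference between KD and control was larger at the higher sites. In the 134 sites with the highest mean percentile the library medians were 13.4 and 14.6 in control and 8.31 and 8.77 in KD, and the median log2 difference was -0.77. In the lowest 133 sites they were 6.0 and 6.25 in control and 4.43 and 4.63 in KD, with a median of -0.46. The 134 and 133 sites between them had -0.70 and -0.61. A site without a called peak in 1 of the lists is outside the set, which limits how low a KD value could be at the low sites. Lowest in the set by mean percentile, chromosome 6 at 4374377 to 4374691 had 3.86 and 3.79 in control and 3.6 and 3.41 in KD, and chromosome 6 at 97264264 to 97264653 had 4.07 and 3.57 against 3.6 and 3.90. Outside the set, the highest region of exactly 3 lists was on chromosome 9 at 93063609 to 93063836, with 25.9 and 32.1 in control, 11.9 in KD 1 and no peak in KD 2.

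H3K27ac was present at most constant sites in either condition. Of the 534 sites, 78.7% and 75.7% had an H3K27ac peak in the control libraries and 79.4% and 79.2% in the KD libraries (77.2% ± 2.12 and 79.3% ± 0.132, SD, n = 2 each). The H3K27ac lists were longer in KD, with 48022 and 46822 peaks against 36679 and 34932 in control, which was not adjusted for. Both KD shares lay above both control shares, by 2.15 percentage points between means (exact permutation p = 0.33). Leaving out control 2 of H3K27ac made it 0.655 points, and leaving out control 1 made it 3.65. All 4 libraries had the mark at 380 sites (71.2%, 95% Wilson interval 67.2% to 74.8%) and none at 79 (14.8%, 12.0% to 18.1%). These intervals cover counting error only. The mark was found in both KD libraries and no control at 17 sites (3.18%), against 6.80% of all SMARCA4 regions. It was in both controls and no KD library at 14 (2.62%), against 2.44%. In regions of exactly 3 lists these shares were 4.49% and 2.14%. Over the other 47475 SMARCA4 regions the share with an H3K27ac peak was 61.8% ± 1.33 in control and 67.6% ± 0.694 in KD. The change at constant sites was thus 3.62 points smaller than at these other regions. The exact permutation test over libraries could not separate this from 0 (p = 0.33, the smallest it allows). Regions in exactly 3 lists had 76.6% ± 1.43 in control and 80.6% ± 0.417 in KD, a change of 4.03 points.

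MYOD also marked most constant sites. Its peaks were found at 76.4% and 77.0% of the sites in control and at 74.3% and 74.0% in KD (76.7% ± 0.397 and 74.2% ± 0.265, SD, n = 2 each), a difference of -2.53 points with both KD shares below both control shares (exact permutation p = 0.33). MYOD peaks were 159 and 179 bp wide in the control lists and 213 and 225 bp in the KD lists, so the wider KD peaks had the lower share. The KD lists also held more MYOD peaks, 52510 and 48003 against 44974 and 43381 in control, which was not adjusted for. When every site and every MYOD peak was given 200 bp around its centre, the difference was -3.93 points. With sites merged up to 500 bp apart or taken from the upper 50% of each list it was -6.59 and -4.45. MYOD was present in all 4 libraries at 294 sites (55.1%, 50.8% to 59.2%) and in none at 42 (7.87%). At 19 sites (3.56%) it was in both controls and no KD library, against 3.72% of all SMARCA4 regions. It was in both KD libraries and no control at 10 (1.87%), against 4.73%. In regions of exactly 3 lists these shares were 3.68% and 2.87%. At the other SMARCA4 regions the share with a MYOD peak went from 41.9% ± 0.889 to 43.5% ± 1.35. This was the opposite direction to the constant sites, and the 2 changes differed by -4.19 points (exact permutation p = 0.33). Regions in exactly 3 lists had 74.1% ± 0.807 and 72.0% ± 1.43, also lower in KD.

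Examples of sites that changed their MYOD peak are the 3 highest in each direction. At 93170034 to 93170478 on chromosome 10, and at 157015347 to 157015676 and 235267609 to 235267803 on chromosome 1, MYOD was called in both controls and in no KD library, and H3K27ac in all 4. SMARCA4 there was 11.8 and 13.8 in control and 9.97 and 8.04 in KD at the first, 10.3 and 12.5 against 7.20 and 8.28 at the second, and 9.85 and 14.5 against 7.48 and 6.82 at the third. The reverse was seen on chromosome 8 at 28514811 to 28515046, 130697949 to 130698198 and 10587374 to 10587650, where MYOD was called in both KD libraries and no control. The strongest of these, at 28514811, had 20.8 and 15.4 in control and 10.8 and 10.5 in KD, lower tag counts of SMARCA4 beside a MYOD peak called in KD libraries alone. A peak missing from a list shows that it did not pass the threshold there, not that the factor was absent.

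Tagged TWIST2 was found at a little over 50% of the constant sites. A Ty1 peak lay at 52.1% of the sites in replicate 1 and 55.2% in replicate 2, in both at 239 (44.8%, 40.6% to 49.0%) and in neither at 200 (37.5%, 33.5% to 41.6%). No Ty1 library of cells without the tag was used here, so unspecific Ty1 peaks were not measured.

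All 3 antibodies found more constant sites than other SMARCA4 regions. Averaged over libraries, constant sites exceeded the other regions by 13.5 points for H3K27ac (78.2% against 64.7%, higher in 4 of 4 libraries, exact sign-flip permutation p = 0.13), by 32.7 points for MYOD (75.4% against 42.7%, 4 of 4, p = 0.13) and by 19.2 points for Ty1 (53.7% against 34.4%, 2 of 2, p = 0.5). These are the smallest p-values that 4 and 2 libraries allow, and after Benjamini-Hochberg adjustment over 12 such comparisons they were 0.250, 0.250 and 0.667. Width and peak strength moved with the difference: constant sites had a median width of 254.5 bp and the others 159 bp. With every SMARCA4 region set to 200 bp around its centre, and H3K27ac peaks left as they were, the H3K27ac excess was 13.3 points. It was 29.6 for MYOD and 17.0 for Ty1, whose peaks were also given 200 bp. When the sites and the regions they were compared with came from the upper 50% of each SMARCA4 list, the excess was 24.2 points for MYOD and 14.6 for Ty1, but 1.5 for H3K27ac (exact permutation p = 0.375). Against regions in exactly 3 lists, whose median width was 246 bp, the differences were -0.379 points for H3K27ac, 2.38 for MYOD and 1.55 for Ty1 (exact permutation p = 0.625, 0.13 and 1). Regions of both controls only had H3K27ac at 78.2% ± 0.573 over its 4 libraries, against 78.2% ± 1.75 of constant sites, and they had MYOD at 61.4% and Ty1 at 42.2%. Regions of both KD libraries only had H3K27ac at 61.7% ± 11.8, MYOD at 53.2% ± 10.8 and Ty1 at 43.3% ± 1.93. These are 16.6, 22.2 and 10.4 points below constant sites (exact permutation p = 0.13, 0.13 and 0.5). The H3K27ac and MYOD means join control and KD libraries, which differed at these regions. H3K27ac was at 52.0% and 51.0% of them in control and at 73.2% and 70.5% in KD. MYOD was at 42.4% and 45.5% in control and at 64.1% and 60.8% in KD.

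**Figure D4:**
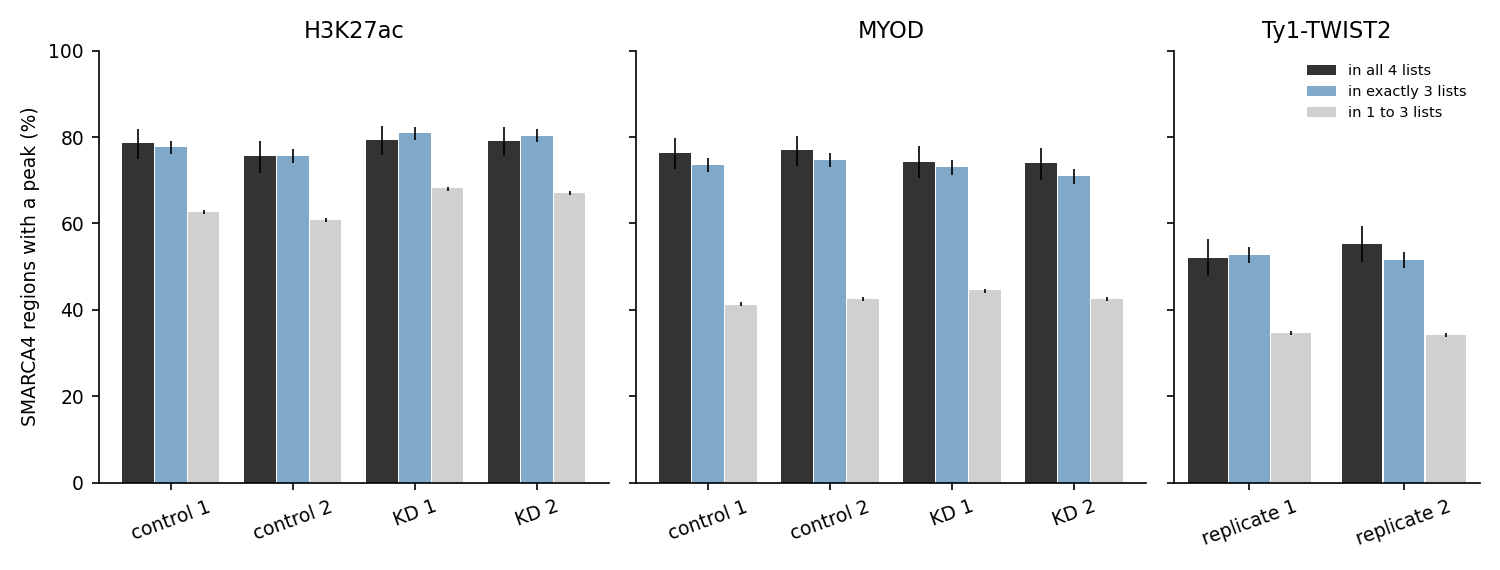
Share of SMARCA4 regions with an H3K27ac, MYOD or Ty1-TWIST2 peak in each library, for the 534 constant sites, the 2715 regions in exactly 3 lists and the 47475 regions in 1 to 3 lists. Bars are shares of regions with 95% Wilson intervals, and constant sites stand above the regions in 1 to 3 lists in all 10 libraries but close to those in exactly 3.

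The 3 antibodies often met at the same constant sites, as they did at other SMARCA4 regions. H3K27ac and MYOD in all 4 libraries together with Ty1 in both were found at 153 sites (28.7%, 25% to 32.6%), against 7.54% of the other SMARCA4 regions and 24.6% of those in exactly 3 lists. H3K27ac and MYOD without Ty1 in both held 87 sites, and H3K27ac without the full set of either factor 108. The remaining sites were spread over smaller classes, from 26 with MYOD and Ty1 but not H3K27ac in every library to 72 with none of the 3 in its full set. Ty1 in both libraries was found at 60.9% of the 294 sites with MYOD in all 4 (55.2% to 66.3%) and at 25% of the other 240 (19.9% to 30.8%). The same shares were 60.3% and 25.7% for regions in exactly 3 lists and 50.6% and 19.8% for all other SMARCA4 regions. MYOD in all 4 libraries was found at 63.2% of sites with H3K27ac in all 4 and at 35.1% of the others, and at 25.3% of the 79 sites with no H3K27ac in any library. For regions in exactly 3 lists the corresponding shares with and without H3K27ac in all 4 were 55.4% and 41.1%, and for all other regions 26.1% and 12.9%. Only 11 sites (2.06%, 1.15% to 3.65%) had no peak of any of the 3 antibodies in any library, against 10.9% of the other regions.

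The highest site with all 3 was that on chromosome 8 at 31880809 described above. The next were on chromosome 7 at 151451275 to 151451508 (22.3 and 26.6 in control, 14.1 and 13.6 in KD) and on chromosome 11 at 15671685 to 15671898 (24.2 and 32.6 in control, 11.6 and 12.2 in KD), with MYOD centres 7.50 and 6.0 bp from the site's centre. Among the 11 sites with no other peak the highest was on chromosome 1 at 65775504 to 65775710, with 12.6 and 12.1 in control and 9.70 and 6.09 in KD. Its nearest control MYOD and Ty1 centres were 55338.5 and 48883.5 bp away.

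MYOD peaks often had their centre close to that of the constant site. Within 50 bp of the site's centre (the mean of its 4 peak centres) there was a MYOD centre at 45.1% and 43.1% of sites in control and at 41.8% and 41.0% in KD, and a Ty1 centre at 24.7% and 27%. Other SMARCA4 regions had 20.3% to 21.7% for MYOD and 14.9% and 14.8% for Ty1, and regions in exactly 3 lists 38.1% to 43.3% and 25.9% and 25.3%. Within 200 bp the MYOD shares at constant sites were 75.7%, 75.5%, 72.1% and 71.2%, and within 1000 bp 86.5%, 84.8%, 83.1% and 80.9%. Distances between centres do not depend on the width of the MYOD peaks. A MYOD centre within 50 bp in all 4 lists was found at 85 sites (15.9%), a Ty1 centre within 50 bp in both lists at 75 (14.0%), and both at 21 (3.93%).

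**Figure D5:**
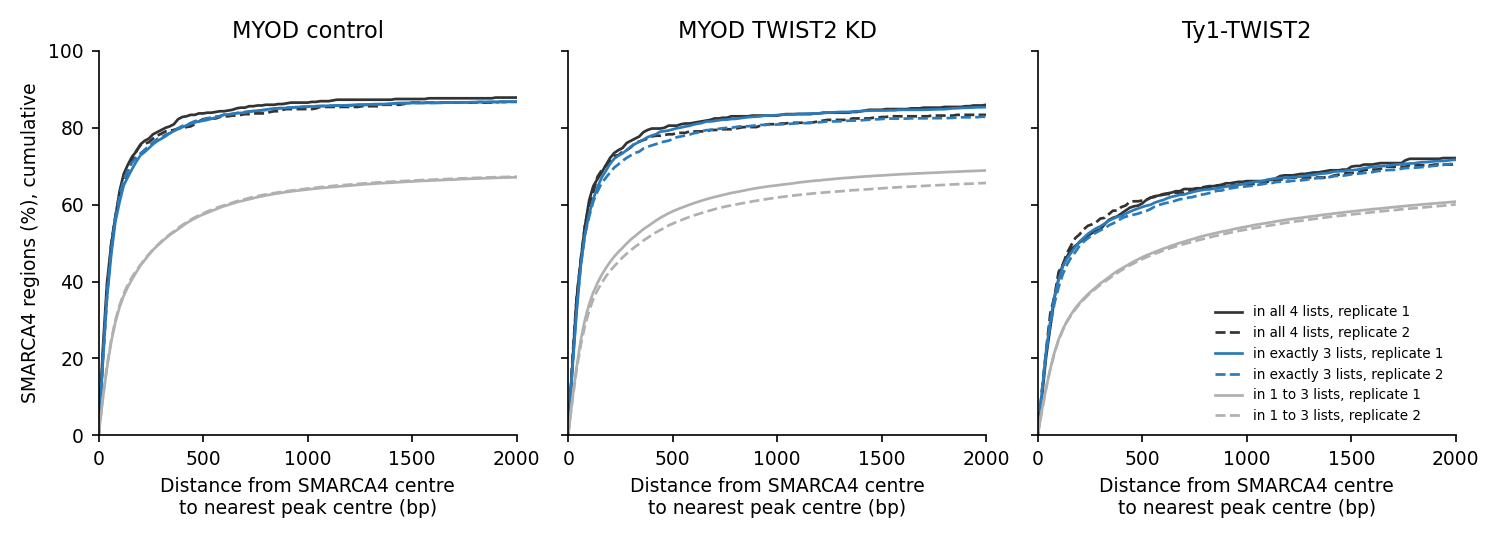
Cumulative share of SMARCA4 regions whose centre lies within a given distance (bp) of the nearest MYOD or Ty1-TWIST2 peak centre, for constant sites, regions in exactly 3 lists and regions in 1 to 3 lists, with 1 line per replicate. Constant sites and regions in exactly 3 lists run together and above the rest, with 75.7% of constant sites within 200 bp of a MYOD centre in control 1 against 44.2% of the regions in 1 to 3 lists.

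H3K27ac peaks that held a constant site were wider than H3K27ac peaks in general, with a median of 2458.5 and 2451.5 bp in control and 2575 and 2552 bp in KD, against 1835, 1870, 1757 and 1777 bp over all peaks of these libraries. A wider peak is more likely to hold a given site. Domains of 10000 bp or more held 7 and 6 constant sites in control and 9 and 7 in KD, that is 1.12% to 1.69% of the sites, against 1.40% to 1.62% of the other SMARCA4 regions and 1.99% to 2.32% of those in exactly 3 lists.

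SMARCA4 tag counts differed by at most 0.22 on the log2 scale, in any library, between constant sites with and without the full set of another antibody. At the 380 sites with H3K27ac in all 4 libraries the medians were 9.0 and 9.82 in control and 5.82 and 6.09 in KD, and at the other 154 they were 8.14 and 8.70 in control and 6.09 and 5.96 in KD. Sites with the mark were thus higher in both controls, by 0.14 and 0.17 on the log2 scale, and not in both KD libraries (-0.07 and 0.03). The change of this contrast was -0.18, with exact permutation p = 0.33. Sites with MYOD in all 4 libraries had more SMARCA4 in every library than the other sites, by 0.17 and 0.22 in control and 0.07 and 0.18 in KD, and the change was -0.08 (exact permutation p = 0.667). Sites with Ty1 in both libraries differed from the rest by -0.04 and 0.07 in control and -0.07 and 0.00 in KD, a change of -0.05 (exact permutation p = 0.667). The median log2 difference between KD and control was -0.68 at the 239 sites with Ty1 in both libraries and -0.63 at the other 295. Of those 295 sites, 95 had a Ty1 peak in 1 library. In these same 4 groups of sites, from highest to lowest SMARCA4 percentile, MYOD was in all 4 libraries at 61.2%, 65.7%, 50.4% and 42.9%, and Ty1 in both at 41.8%, 49.3%, 45.1% and 42.9%. H3K27ac was in all 4 at 71.6%, 76.9%, 75.9% and 60.2%.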

How the data were processed

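Groups and replicate numbers came from the labels: 14 libraries with a peak list, 2 per group, while 10 input samples of the 24 were not used on their own. Per the submitters' processing notes, the tools were HOMER 4.4, Bowtie2 2.3.4.3, bedtools 2.29.2 and SAMtools 0.1.19, with hg19 (GRCh37). Per the file headers, HOMER called SMARCA4 peaks per library in factor style, with a false discovery rate of 0.001 and at least 4-fold over the library's own input and over the surrounding 10000 bp.

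The deposited normalized tag count is a signal per 10000000 tags. The deposited tables also hold the raw tag count per peak (scaled to the input in control 1, so not whole there), the fold ratio over input and over local background, a HOMER score used to rank peaks, and a focus ratio, a fraction, not analysed. The deposited H3K27ac, MYOD and Ty1 lists hold positions only.

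Peaks were merged with Python 3.11.15 (checked against bedtools 2.31.1), the highest peak standing for a list with several in a region (1 site). limma 3.58.1 (R 4.3.3) was fitted to log2 tag counts of 3249 regions, without a block. In regions of 3 lists the missing library was left out. No pairing of replicate numbers was assumed. Single values per library were compared by exact two-sided permutation tests. The calculations were tested on simulated data. The constant sites, comparisons and naming rules were chosen with earlier results of these data known. Sites named were the 10 highest by mean within-list percentile, the 8 largest falls and rises with groups apart, the 4 highest with and without the other antibodies, the 3 lowest, and the 3 highest in exactly 3 lists; the sites with a changed MYOD peak were chosen afterwards. Genes and sequences were not analysed here, as no hg19 reference was used.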

Additional observations from a re-analysis of the deposited data

How the results depend on the processing

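The number of constant sites was 918 when peaks up to 500 bp apart were merged, 326 with the upper 50% of each list, and 704 to 1581 when 1 library was left out. Sites called lower by limma numbered 277 with the replicate block, 0 with equal medians, 0 per bp of peak width, 0 on fold over input and 0 over local background, and 200 to 311 with 1 library left out (223 without control 1, 200 without control 2). Equal medians remove the shared shift, and the cause of these changes in number was not tested. Sites called higher were 0 with the replicate block, equal medians, fold over input or local background, 1 per bp, and 0 to 3 with 1 library left out. Groups were apart with KD below at 264 sites per bp, 122 with equal medians, 115 on fold over input and 207 over local background, and with KD above at 29, 123, 88 and 46. edgeR on tags recomputed from the normalized counts, chosen after seeing the data like both fold scales, called 306 sites lower, 305 of them among the 355. edgeR on the deposited tags was not run, since those of control 1 are not whole. The deviations of same-numbered SMARCA4 libraries had a correlation of -0.0132 across sites. This value does not show whether they were paired and does not say how the replicates were made. The block gave differences of -0.64 for the median tag count and of 2.15 and -2.53 points for H3K27ac and MYOD (exact permutation p = 0.5 each), and changed no call beyond those given and 5 named sites that lost theirs. Without 1 library the H3K27ac difference ran from 0.655 to 3.65 points (0.655 without control 2), and the MYOD difference was -6.59 with peaks merged up to 500 bp apart. H3K27ac against regions in exactly 3 lists turned to -0.379 points. The Ty1 contrast of tag counts was -0.10 to 0.00 with 1 SMARCA4 library left out. Named sites changed sign as follows (log2). On fold over input: chromosome 7 at 151451275 0.02, chromosome 8 at 130527837 -0.27, chromosome 7 at 10468737 -0.12, chromosome 8 at 125093101 -0.56, chromosome 10 at 96989447 -0.08, chromosome 9 at 134258599 0.15, chromosome 1 at 65775504 0.36, chromosome 13 at 52922349 0.28, chromosome 6 at 4374377 0.14. With equal medians: chromosome 17 at 64825705 0.14, chromosome 13 at 52922349 0.29, chromosome 6 at 97264264 0.62 and at 4374377 0.52. Over local background: chromosome 17 at 64825705 0.10, chromosome 4 at 55031653 -0.09, chromosome 6 at 4374377 0.36. Per bp: chromosome 6 at 97264264 0.28 and at 4374377 0.18. Without control 1 and without KD 1, chromosome 6 at 97264264 had 0.07 and 0.03. Depth limits single sites most in KD, where a median site held 21 or 25 tags.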
